A study of Canis lupus familiaris with 10 samples.

Results

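The coreceptors of the T cell, CD4, CD8A and CD8B, were followed through 10 canine cutaneous histiocytomas (CCH), 5 of early and 5 of late stage. They are 3 of the 800 genes of the nCounter Canine IO Panel and were chosen by their names. Beside the level of each transcript, the ratios of CD4 to CD8A and of CD8A to CD8B were computed in every tumour. In the gene table used for names, CD4 (gene ID 403931) lies on chromosome 27 beside LAG3, while CD8A (gene ID 403157) and CD8B (gene ID 483076) are neighbouring protein-coding genes on chromosome 17.

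CCH, a benign tumour of Langerhans cells in canine skin, regresses as a rule while lymphocytes move in. By their titles the early tumours were group 1 and the late ones group 3 in the classification of Cockerell and Slauson, with the late titles adding lymphocyte enriched. The paper describes group 1 as free of lymphocytes and group 3 as increasingly infiltrated by them. Lower T cell transcripts in early tumours are therefore partly built into the grouping. Every tumour was taken from a different privately owned dog, none was pooled, and the RNA came from whole cross sections of formalin-fixed, paraffin-embedded (FFPE) blocks from which adjacent tissue had been trimmed. No treatment is given in the labels for either stage. The early dogs were a Goldendoodle, a Terrier, a Boxer and French Bulldogs for the remainder, aged 0.5 to 5.0 years where known (4 of 5 dogs). The late dogs were a Rottweiler, a Beagle, a Pug, a Bullterrier and a Jack Russell Terrier, aged 1.5 to 9.0 years. Of the defining Langerhans cell markers, CD207, which encodes langerin, lay above the probe background in 1 of 5 early and 1 of 5 late tumours, whereas CDH1, encoding E-cadherin, was above it in all 10. The RNA was of whole sections, and which cells gave the CDH1 signal was not tested.

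CD4 and CD8 sit beside the T cell receptor and bind the molecules that present peptides to it. CD4, a single chain, binds MHC class II and marks helper and regulatory T cells, whereas CD8 binds MHC class I and marks cytotoxic T cells. Both bring the kinase LCK to the receptor. CD8 works as a dimer, either of an alpha and a beta chain (from CD8A and CD8B), which is the form of conventional cytotoxic T cells, or of alpha chains alone, which also occurs on some innate-like lymphocytes. In dogs, CD4 is carried by neutrophils too. In bulk tissue, fewer cells of a type and less RNA per cell cannot be told apart.

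The values are normalized counts, that is, barcode counts scaled to positive controls and housekeeping genes. Depth differed between the stages: 484696 to 823763 recovered barcode counts lay behind the early tumours and 945399 to 1253083 behind the late ones. The background, set at the mean plus 2 SD of the 8 negative probes of a tumour, was 21.8 to 38.2 normalized counts in early and 19.2 to 26.9 in late CCH. RNA was more intact in late tumours, with a DV200 (the percentage of fragments over 200 nucleotides) of 71.2 to 75.8, against 64.5 to 71.2 in early ones. The label's DV200 of late 5 (71.2) differs from that in the study's sample sheet, and the label was used. The early tumours were run on a different nCounter cartridge from the late ones and none of the 5 RNA extraction batches held both stages. Early blocks had also been stored for less time, so cartridge, extraction, storage and stage cannot be told apart.

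CD4 was lower in early than in late CCH in every pairing of tumours. It measured 33.85, 200.2, 130.3, 88.95 and 39.79 normalized counts in early tumours 1 to 5. In late tumours 1 to 5 it measured 937.7, 318.5, 607.7, 995.5 and 378.1. The stages did not overlap, and the lowest late tumour (late 2) stood 1.59 times above the highest early one (early 2). All 10 tumours lay above their background, but early 1 and early 5 only by 1.55 and 1.12 times, on 32 and 21 barcodes.

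The stage means of CD4 were 98.6 ± 69.0 (SD, n = 5) and 647 ± 311 (SD, n = 5). On the log2(normalized count + 1) scale the early minus late difference was −2.86 (SE 0.53, 95% interval −4.05 to −1.68), a 7.28-fold higher level in late tumours. With limma across the 761 genes that averaged at least 20 normalized counts, CD4 (BY adjusted p = 0.0247) passed a rule with thresholds taken from the study. These were a 2-fold change and p no higher than 0.05 after Benjamini-Yekutieli (BY) adjustment. The study's own test of this comparison, run in the nSolver software, called no gene in the nCounter data. In limma CD4 was the only coreceptor to pass, against 11.2% of all tested genes. The call was narrow: in limma fits without 1 tumour, the BY adjusted p was 0.0504 without early 1, 0.0683 without early 5, 0.0768 without late 1, 0.0511 without late 3 and 0.0825 without late 4. Once DV200 entered the limma model as a covariate, the difference was −2.48 (SE 0.84) with a BY adjusted p of 0.807.

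CD8A, the alpha chain, was also lower in every early tumour than in every late one. Its normalized counts in early tumours 1 to 5 were 34.91, 575.0, 1254, 1043 and 193.3. Late tumours 1 to 5 had 4520, 3226, 1384, 3639 and 3252. Early 1 sat near its background (1.60 times), early 3 and early 4 came close to late 3, and the stages remained apart by a factor of 1.10 between early 3 and late 3.

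The stage means of CD8A were 620 ± 526 and 3204 ± 1144 (SD, n = 5 each). Its log2 difference was −3.09 (SE 0.88, 95% interval −5.04 to −1.15), 8.54-fold. Without early 1 it was −2.27, while that of CD4 was −2.56. CD8A missed the BY threshold in limma (adjusted p = 0.148) and passed the less strict Benjamini-Hochberg (BH) one (adjusted p = 0.0205).

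CD8B, the beta chain, repeated the order of CD8A among early tumours. Normalized counts were 28.56, 229.0, 550.7, 490.9 and 104.2 in early tumours 1 to 5. They were 1335, 1013, 579.7, 1857 and 1665 in late tumours 1 to 5. Early 1 was again at the bottom (1.31 times its background), and only a factor of 1.05 parted early 3 from late 3.

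For CD8B, the stage means were 281 ± 232 and 1290 ± 511 (SD, n = 5 each) and the log2 difference was −2.72 (SE 0.75, 95% interval −4.38 to −1.07), 6.60-fold, and −2.07 without early 1. The limma BY adjusted p was 0.127 and the BH adjusted p 0.0176. Neither CD8 chain passed the BY threshold in any limma fit without 1 tumour, and CD8A also lost its BH call without early 5 (limma BH adjusted p = 0.0505).

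**Figure D1:**
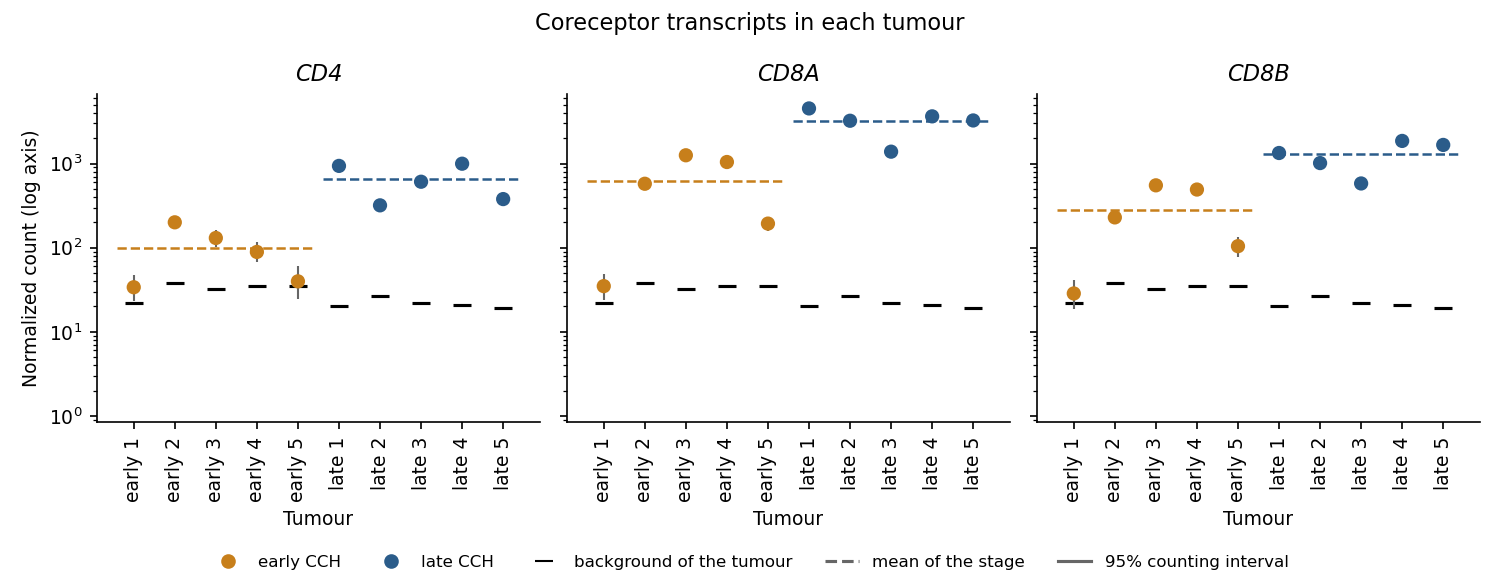
Normalized counts (log axis) of CD4, CD8A and CD8B in each of the 5 early and 5 late tumours, with the background of each tumour (black dashes), the mean of each stage (dashed lines) and the 95% counting interval (vertical lines). Every late tumour lies above every early one for all 3 genes, by 1.59 times for CD4 but only 1.10 and 1.05 times for CD8A and CD8B, and early 1 lies near its background in each panel.

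All 3 coreceptors therefore separated the stages completely, which 19.2% of tested genes did with late above early and 24.6% in either direction. All 3 passed the BH threshold towards late CCH, against 27.3% of tested genes (35.7% in either direction). Ordered by the size of their late-higher difference among the 761 tested genes, CD8A ranked 11, CD4 20 and CD8B 27. That order rested on early 1: without it the differences were −2.56 for CD4, −2.27 for CD8A and −2.07 for CD8B. The median difference over all tested genes was −0.18. Scaled to the geometric mean of the tested genes instead of the housekeeping genes, that median moved to 0.21, and CD4, CD8A and CD8B stood at −2.48, −2.71 and −2.34. The split of the panel's BY calls moved with it, from 70 genes higher in late and 15 higher in early to 34 and 42. With DV200 as a covariate, the differences were −2.48 for CD4, −2.58 (SE 1.38) for CD8A and −2.47 (SE 1.19) for CD8B. None of the 3 then passed either threshold in limma (BH adjusted p = 0.112, 0.257 and 0.219).

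From the lowest to the highest early tumour, CD8A ranged 35.9-fold, CD8B 19.3-fold and CD4 5.91-fold. Early 1, near background, set that contrast: without it, a setting chosen after seeing the data, the early ranges were 6.49-fold, 5.28-fold and 5.03-fold. Among late tumours the ranges were 3.27-fold for CD8A, 3.20-fold for CD8B and 3.13-fold for CD4. On the log2 scale, the early SD of CD8A (2.12) stood at the 98.4th percentile of all tested genes and that of CD8B (1.75) at the 96.3rd, and that of CD4 (1.08) at the 85.5th. Without early 1 these SDs were 1.21, 1.11 and 0.98.

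The ratio of CD4 to CD8A asks whether the balance of the coreceptors moved between the stages. Its level also depends on how well each probe binds, so it is compared between tumours and not read as a ratio of cells. In early tumours 1 to 5 the ratio was 0.970, 0.348, 0.104, 0.0853 and 0.206. In late tumours 1 to 5 it was 0.207, 0.0987, 0.439, 0.274 and 0.116. The early values enclosed the late ones: early 1 was highest and early 4 lowest of all 10, an 11.4-fold span (5.15-fold without early 1).

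The mean CD4 to CD8A ratio was 0.343 ± 0.366 in early and 0.227 ± 0.138 in late CCH (SD, n = 5 each). The log2 difference was 0.23, with a 95% permutation interval of −1.39 to 2.02 (exact two-sided permutation p = 0.786, BH adjusted over the 5 ratios computed 0.786; 5 against 5 can reach 0.00794). These data thus do not exclude shifts of the balance within that interval, in either direction. The early 1 value rests on transcripts near background (counting interval 0.577 to 1.63, which covers counting error only), and without early 1 the difference turned to −0.29. Subtracting the mean of the negative probes also turned its sign, to −0.10.

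By Dixon's test no coreceptor or ratio set late 3 far from the other late tumours. Late 3 had the lowest CD8A and the lowest CD8B of its stage, and its CD4 was the middle value. Its CD4 to CD8A ratio of 0.439 was the highest late ratio. It also had the highest sum of B cell markers of all 10 tumours (20524 normalized counts, against 5142 to 11151 in the other late tumours).

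CD8A and CD8B kept a steadier proportion. Their ratio was 1.22, 2.51, 2.28, 2.12 and 1.85 in early tumours 1 to 5. It was 3.39, 3.18, 2.39, 1.96 and 1.95 in late tumours 1 to 5. The span over all tumours was 2.77-fold (1.83-fold without early 1), and the stages overlapped. Early 1 alone lay below 1.85, with a counting interval of 0.713 to 2.11. Late tumours differed by more than counting error. The counting intervals were 3.16 to 3.63 in late 1 and 2.96 to 3.43 in late 2, but 1.86 to 2.07 in late 4 and 1.84 to 2.08 in late 5.

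The mean CD8A to CD8B ratio was 2.00 ± 0.49 in early and 2.57 ± 0.68 in late CCH (SD, n = 5 each). The log2 difference of −0.37 had a 95% permutation interval of −0.97 to 0.22 (exact two-sided permutation p = 0.183, BH adjusted 0.754).

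**Figure D2:**
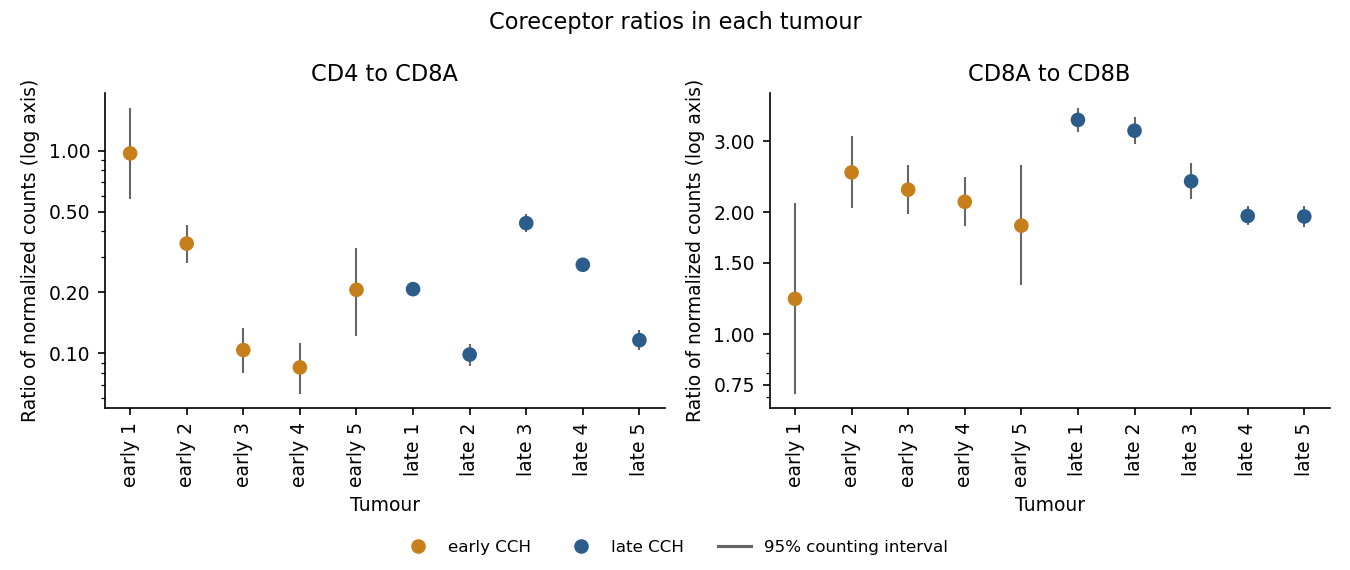
Ratios of normalized counts (log axes) of CD4 to CD8A (left) and CD8A to CD8B (right) in the 5 early and 5 late tumours, with 95% counting intervals as vertical lines. The CD4 to CD8A ratio runs from 0.0853 to 0.970 within early CCH and overlaps between stages, while CD8A to CD8B stays between 1.22 and 3.39.

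Setting each coreceptor against CD3E, a chain of the receptor complex present in all T cells, separated CD4 from the CD8 chains. CD3E itself measured 42.32, 715.8, 3402, 2090 and 274.8 normalized counts in early tumours 1 to 5. It measured 6134, 5024, 3853, 6011 and 5160 in late tumours 1 to 5. Its log2 difference was −3.18 (limma BH adjusted p = 0.0318, BY adjusted p = 0.229). The early tumours thus ran from 1.94 times background in early 1 to just under the lowest late tumour in early 3.

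The CD8A to CD3E ratio held within a 2.30-fold span over all 10 tumours (2.24-fold without early 1), from 0.359 in late 3 to 0.825 in early 1. Early values were 0.825, 0.803, 0.369, 0.499 and 0.703 and late values 0.737, 0.642, 0.359, 0.605 and 0.630 in tumours 1 to 5. The log2 difference between stages was 0.08 (interval −0.67 to 0.76, exact two-sided permutation p = 0.754, BH adjusted 0.786). CD8B to CD3E spanned 4.49-fold (2.52-fold without early 1), from 0.150 in late 3 to 0.675 in early 1, with a log2 difference of 0.45 (interval −0.44 to 1.42, exact two-sided permutation p = 0.302, BH adjusted 0.754).

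CD4 did not keep to CD3E. Its ratio was 0.800, 0.280, 0.0383, 0.0426 and 0.145 in early tumours 1 to 5, a 20.9-fold span that was 7.30-fold without early 1. In late tumours 1 to 5 it was 0.153, 0.0634, 0.158, 0.166 and 0.0733, a 2.61-fold span. Early 3 and early 4, the early tumours with the most CD3E, CD8A and CD8B, had less CD4 per CD3E than any late tumour, and less CD4 in absolute terms than early 2. The mean log2 difference between stages was 0.31 (interval −1.95 to 2.34, exact two-sided permutation p = 0.754, BH adjusted 0.786), and it turned to −0.31 without early 1 and to −0.060 after subtraction of the negative probe mean.

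**Figure D3:**
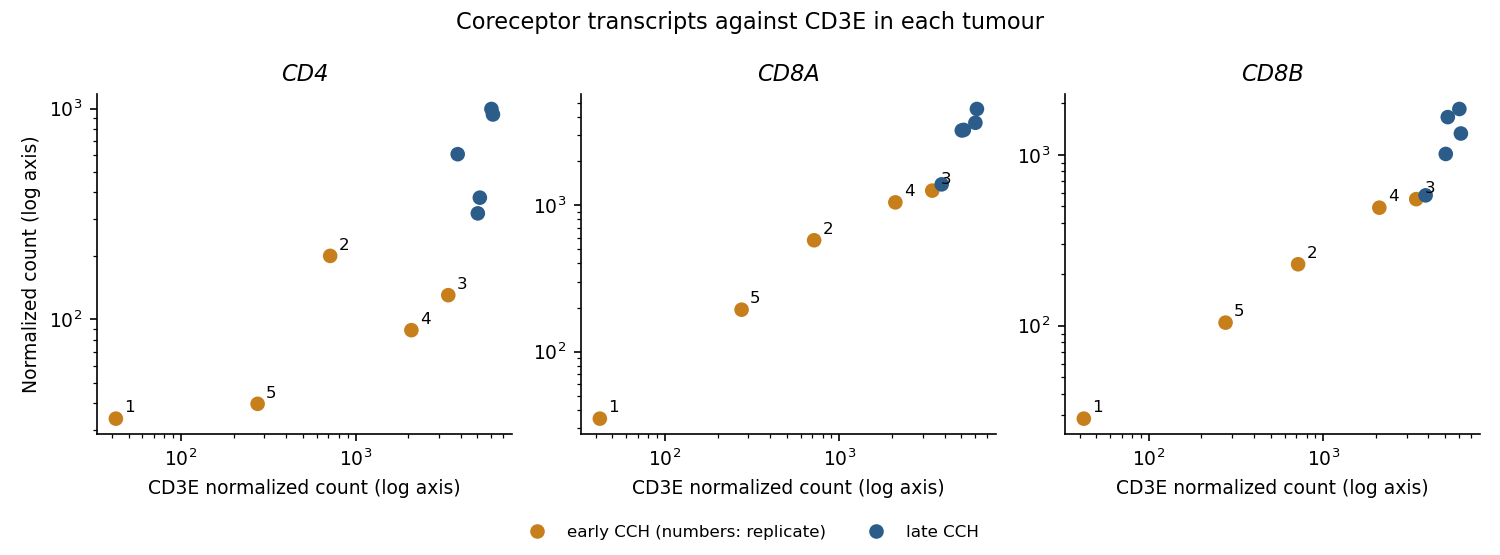
Normalized count of CD4, CD8A and CD8B against that of CD3E in each tumour (log axes, 1 point per tumour, early tumours numbered by replicate). CD8A and CD8B lie along 1 band through both stages, whereas for CD4 the early tumours 3 and 4 lie below early 2 despite their higher CD3E, and the late tumours lie apart.

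Likeness of pattern was measured as the SD, over the 10 tumours, of the log2 ratio between a gene and the coreceptor, a description in which all genes share the same libraries. For CD8A, the 5 nearest of the tested genes were TRBC (SD 0.38), CD8B (0.42), CD3E (0.43), the chemokine CCL5 (0.43) and CD3D (0.43), beside a median of 2.15 over all tested genes. For CD8B they were TRAC (0.35), the costimulatory receptor CD28 (0.38), CD3G (0.39), TRBC (0.42) and CD8A (0.42), beside a median of 1.86. Receptor chains thus filled most of both lists.

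The genes nearest to CD4 were others and lay farther off, among them the interleukin 21 receptor IL21R (0.54), PDCD1LG2, a ligand of PD-1 (0.66), the T cell kinase TXK (0.66) and the signalling adaptor SH2D1A (0.68), beside a median of 1.72. CD8B ranked 61 by likeness to CD4 (0.98), CD8A 96 (1.12) and CD3E 179 (1.32). SH2D1A had 1 late tumour far from the rest, as given among the results for a closer look.

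The receptor chains moved in the direction of the coreceptors. All 6 chains tested (CD3D, CD3E, CD3G, CD247, TRAC and TRBC) passed the BH threshold towards late CCH, beside 27.3% of all tested genes, with a median log2 difference of −2.94. CD247, the zeta chain, was the 1 that passed the BY rule (−2.29, limma BY adjusted p = 0.0293), as 9.20% of tested genes did with late higher. In early tumours CD247 measured 8.46 to 44.48 normalized counts, above background in 2 of 5, so the size of its difference is uncertain. The call of CD247 was kept only without early 1, early 3 or early 4 and was lost in the other 7 fits without 1 tumour (BY adjusted p 0.0567 to 0.0878). CD3G was at −2.51, and CD3E, at −3.18 with all tumours, was at −2.25 without early 1. Over the fits without 1 tumour, the smallest differences of the other chains were −2.12 (CD3D), −1.85 (CD3G), −1.97 (CD247), −2.30 (TRAC) and −2.49 (TRBC). The sum of the 6 chains was 255 to 8157 normalized counts in early and 11991 to 20591 in late tumours.

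Among the kinase recruited by the coreceptors and its partners, 7 of 8 tested genes passed the BH threshold with late higher, beside 27.3% of all tested genes (median −2.73). LCK, the kinase that both coreceptors bind, measured 61.36, 291.7, 1067, 864.8 and 132.6 in early tumours 1 to 5. In late tumours 1 to 5 it measured 2510, 2125, 1440, 2054 and 1741, and no early tumour reached the late range. Its log2 difference was −2.72 (SE 0.70, limma BH adjusted p = 0.0141, BY adjusted p = 0.102).

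CD6 (−3.23, limma BY adjusted p = 0.00746) and CD5 (−2.94, 0.0196), scavenger-type receptors that tune receptor signalling, and the kinase FYN (−1.31, 0.0238) passed the BY rule; CD5 and FYN were singled out after their values were seen. CD6 kept its call in every fit without 1 tumour, CD5 lost it without early 5, late 1, late 2 or late 4 (BY adjusted p 0.0531 to 0.0673) and FYN without early 1, early 5, late 1, late 2 or late 4 (0.0504 to 0.0800). FYN also lost it with geometric mean and quantile scaling. PTPRC, which encodes the leukocyte phosphatase CD45 and is made by histiocytes as well, was at −0.32 (limma BH adjusted p = 0.199), a sign that turned to 0.068 with geometric mean scaling. ZAP70, the kinase downstream of LCK, lay below background in all tumours and was not tested.

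Among the ligands of CD8, 6 of 10 genes of MHC class I and its peptide supply passed the BH threshold with late higher, beside 27.3% of all tested genes (median −0.71). DLA88, a classical class I heavy chain, had the largest difference (−1.65, limma BY adjusted p = 0.0120), at 4607 to 6482 normalized counts in early and 9835 to 25021 in late tumours. DLA-64 (−1.59), the peptide transporter TAP1 (−1.05) and the class I transactivator NLRC5 (−1.51) also passed the BY rule in limma, with adjusted p of 0.00543, 0.0141 and 0.0396, and were named after their values were seen. The calls of TAP1 and NLRC5 were lost with geometric mean and TMM scaling, that of TAP1 also with quantile scaling, that of NLRC5 also with low values set to the highest background of any tumour, and that of DLA88 with geometric mean scaling. DLA88 and DLA-64 kept their calls in every fit without 1 tumour, TAP1 fell short of 2-fold without early 1, and NLRC5 kept its call only without early 1, early 3 or early 4 (0.0659 to 0.122 otherwise). B2M, the light chain shared by all class I molecules, differed by −0.06 (limma BH adjusted p = 0.854), with a sign that turned under geometric mean and TMM scaling, and PSMB9 of the immunoproteasome was at 0.44 (0.239). DLA genes are close relatives of each other and highly variable between dogs, so probes may not read each dog alike.

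On the side of CD4, 1 of 9 MHC class II genes passed the BH threshold with late higher, against 27.3% of all tested genes. This was HLA-DRB1 as the panel names it (−0.98, limma BH adjusted p = 0.00723, BY adjusted p = 0.0521). The median was −0.62, the value of DLA-DQB1 (SE 2.29). DLA-DQB1 lay below background in early 4 (29.65) and late 2 (13.27), beside 5602 to 23821 normalized counts in the other tumours. CD74, the invariant chain of class II, was at −0.78 (limma BY adjusted p = 0.750). DLA-DMB, which loads peptides, was at 0.29 (limma BH adjusted p = 0.238). These transcripts are abundant in histiocytes themselves, and their sum was already 69745 to 136274 normalized counts in early tumours, against 120766 to 226547 in late ones.

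LAG3, the inhibitory receptor that binds MHC class II and whose gene neighbours CD4, had 43.37, 66.15, 159.7, 145.0 and 64.42 normalized counts in early tumours 1 to 5. It had 287.7, 390.4, 223.4, 282.3 and 380.2 in late tumours 1 to 5. All late values exceeded all early ones, and its difference of −1.85 passed the BY rule (limma BY adjusted p = 0.0326). That call was kept only without early 3, early 4 or late 3 (BY adjusted p 0.0524 to 0.103 otherwise) and was lost with geometric mean, TMM or quantile scaling. IL16, a cytokine that binds CD4, was low throughout (23.27 to 56.84 in early, 43.18 to 60.49 in late tumours) and differed by −0.34 (limma BH adjusted p = 0.303), a sign that turned to 0.035 with geometric mean scaling.

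Genes of the T cells that carry CD8 and CD4 were described in separate lists. Of 14 cytotoxic T cell genes, 12 passed the BH threshold with late higher, beside 27.3% of all tested genes, and the median was −2.34. Granzyme K (GZMK) had the most negative difference, −3.96 (limma BY adjusted p = 0.0275), at 94.16, 469.8, 2412, 939.0 and 199.0 normalized counts in early tumours 1 to 5. In late tumours 1 to 5 it reached 6533, 10705, 4839, 9249 and 5863. The transcription factor EOMES followed at −3.32 (limma BY adjusted p = 0.0297), and the activating receptor KLRK1, named after its values were seen, at −1.80 (0.0293). Leaving out 1 tumour ended the call of GZMK except for early 1, early 3, early 4 or late 3 (0.0567 to 0.0861 where lost), that of EOMES except for early 1 to 4 (0.0529 to 0.0898) and that of KLRK1 except for early 3, early 4 or late 3 (0.0595 to 0.0887). KLRK1 also lost its call with geometric mean, TMM and quantile scaling. Granzyme A (GZMA, −1.52, limma BH adjusted p = 0.191) and IFNG (−1.66, 0.0599) did not pass.

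Of 17 tested helper and regulatory genes, 5 passed the BH threshold with late higher, close to the 27.3% of all tested genes that did, 1 passed with early higher (8.41% of tested genes did), and the median was −0.46. The 5 were the costimulatory receptors ICOS (−2.75) and TNFRSF4 (−2.13), the cytokine IL21 (−1.96), the transcription factor MAF (−1.65) and the chemokine receptor CCR4 (−1.18). ICOS ranged from −3.35 to −2.05 in fits without 1 tumour and from −2.81 to −1.45 over the other settings. MAF alone passed the BY rule (limma BY adjusted p = 0.0238), and kept that call only without early 2, early 3 or late 3 (0.0515 to 0.0788 otherwise). CCR6, a receptor that Langerhans cells carry as well, ran the other way at 1.74 (limma BH adjusted p = 0.0153), with 490 to 1351 normalized counts in early and 131 to 734 in late tumours. All but ICOS and CCR6 of these were named after their values were seen.

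A pair of CD4 T cell genes was near the limit of the assay. FOXP3, the factor of regulatory T cells, was at 14.81 to 31.3 normalized counts in early tumours, above background in none of 5, and at 12.4 to 33.46 in late ones, above it in 4 of 5. Its difference of −0.17 (limma BH adjusted p = 0.699) turned sign under geometric mean and TMM scaling. CD40LG, the helper ligand of B cells, was at 23.75 to 44.48 and 24.81 to 62.61 (−0.46, limma BH adjusted p = 0.254).

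**Figure D4:**
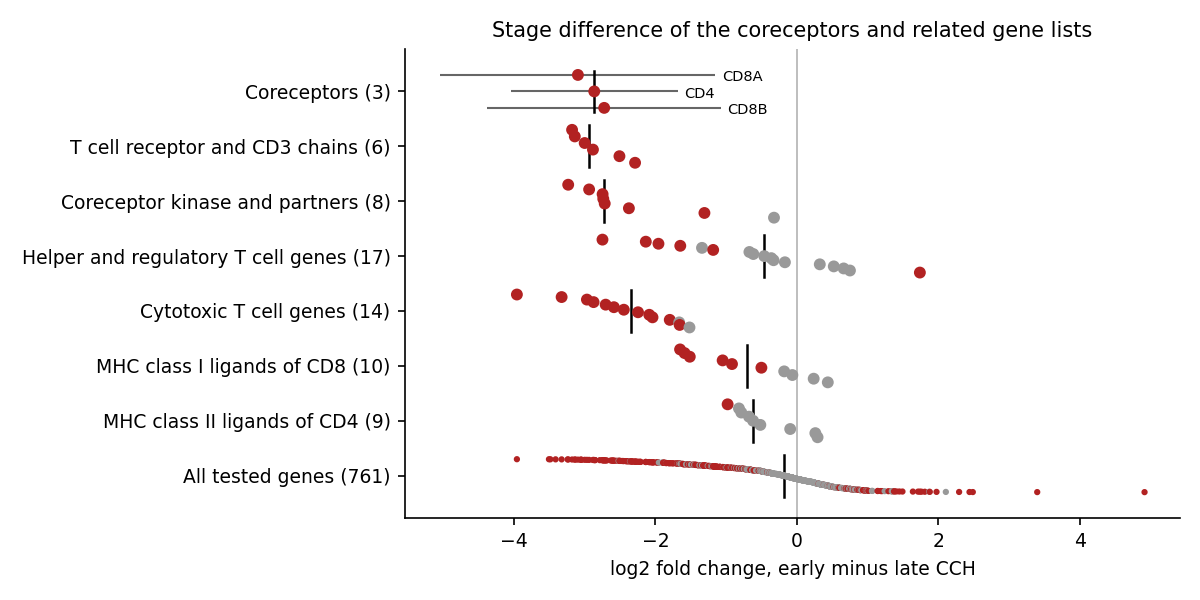
Log2 differences, early minus late CCH, of the coreceptors (with 95% intervals), of the receptor, kinase, helper, cytotoxic and MHC lists, and of all 761 tested genes, with the number tested in parentheses. Red points passed the BH threshold, grey ones did not, and vertical bars mark medians, which are −2.94 for receptor chains, −0.62 for MHC class II, −0.46 for the helper list and −0.18 for all tested genes.

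Other cells that can carry the coreceptors were followed by their markers. The 8 neutrophil markers on the panel summed to 1395 to 37966 normalized counts in early and 1206 to 35880 in late tumours. Of the 7 tested, with a median difference of 0.68, 1 passed the BH threshold with late higher (27.3% of all tested genes did), lactoferrin (LTF, −2.31, limma BH adjusted p = 0.0197), and none was at 0. The sums were 37966, 28704, 1395, 19945 and 2101 in early tumours 1 to 5 and 1881, 35880, 1206, 4581 and 5496 in late tumours 1 to 5. High sums occurred in tumours with the lowest CD4 of their stage (early 1, late 2). They also occurred in the early tumour with the most CD4 (early 2). In these tumours the sum was mostly S100A8, S100A9 and S100A12. Single markers differed: among early tumours LTF (207) and CSF3R (114) were highest in early 2, but CXCR1 (127) in early 1. Among late tumours LTF was highest in late 4 (976), which had the most CD4. CSF3R was highest in late 2 (91.8), which had the least. The part of neutrophils in the CD4 signal was not tested.

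The 9 macrophage markers summed to 3678 to 12055 normalized counts in early and 7039 to 12629 in late tumours, none at 0. The sums were 4693, 12055, 6693, 3678 and 7297 in early tumours 1 to 5 and 12629, 11623, 7039, 10265 and 10832 in late tumours 1 to 5. Early 2, the early tumour with the most CD4, had the highest early sum, and early 5, with CD4 near background, the next highest. CD14 in early tumours 1 to 5 was 1061, 1600, 215, 165 and 913. The median difference of the 9 was −0.42, and 2 passed the BH threshold with late higher, against 27.3% of all tested genes. CD68 (−1.29, limma BY adjusted p = 0.0293) passed the BY rule, MSR1 (−1.67, BH adjusted p = 0.0369) only the BH one, while MRC1 was at 1.00 (BH adjusted p = 0.0508) and CD163 at −0.31 (0.679); the sign of CD163 turned under geometric mean scaling and quantile normalization. CD68 kept its call only without early 2, early 5, late 2 or late 3 (0.0539 to 0.0887 otherwise) and lost it with geometric mean, TMM and quantile scaling. CD68 and MSR1 were named after their values were seen. The part of macrophages in the CD4 signal was not tested.

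Natural killer cells, some of which carry CD8 alpha, gave sums of 294 to 824 normalized counts in early and 382 to 483 in late tumours over 6 markers, none at 0. KLRK1, KLRD1 and CD160 were counted among the cytotoxic T cell genes and not here. The median difference of the 6 was 0.15, and 1 of them passed the BH threshold with late higher, against 27.3% of all tested genes. That was NCR1, a defining receptor of these cells, which also passed the BY rule (−1.71, limma BY adjusted p = 0.0238), at 18.12 to 37.9 in early tumours, above background in 1 of 5, and at 54.19 to 140.3 in late ones. NCR1 lost that call without early 1, late 1, late 4 or late 5 (0.0515 to 0.0800), and with geometric mean scaling. Of 11 B cell markers, 7 were past the BH threshold with late higher, beside 27.3% of all tested genes, and the median was −1.87, with IGHM at −3.41 (limma BY adjusted p = 0.0513) and CD79A, named after its value was seen, past the BY rule (−2.61, 0.0293) and in the fits without early 3, early 4 or early 5 but in no other without 1 tumour (0.0547 to 0.0887). CD79A also lost its call with geometric mean, TMM and quantile scaling.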

How the data were processed

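Total RNA of 10 FFPE tumours (5 early, 5 late CCH by title) was measured by hybridization on the nCounter Canine IO Panel. The authors imported the barcode counts into nSolver 4.0 and normalized them to positive controls and then to housekeeping genes; the deposited values are this normalized signal on a linear scale for 800 genes, with 14 control probes left unscaled. No background subtraction is stated. Gene values were whole multiples of 1 step per tumour (at least 99.6% within 0.0051), which gave recovered counts for depth and background only. All columns could be mapped to a sample.

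Values were tested as log2(normalized count + 1) with limma 3.58.1 in R 4.3.3 (lmFit, eBayes with intensity trend) over the 761 genes with a mean of at least 20. A gene was called at a BY adjusted p of at most 0.05 and a 2-fold change, late CCH being the baseline; BH adjusted p-values are given beside it. Ratios were compared by exact two-sided permutation over the 252 splits of 5 against 5, with 95% intervals by inversion of that test and BH adjustment over 5 ratios. Counting intervals are exact and cover counting error only. Figures were drawn with matplotlib 3.10.9. Scripts were tested on simulated data.

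The coreceptors and the gene lists were chosen with earlier results of these data known. Genes named were the coreceptors, 14 fixed partners and markers, the extremes of each list and the 5 genes nearest in pattern to each coreceptor; others are marked in the text, and a few items are not reported here. Gene names and neighbours are from a RefSeq table of another assembly than the one the probes were designed on, so no coordinates are given, and probe sequences were not used here. The table also lists a long non-coding gene overlapping CD8A; whether the CD8A probe reads it was not tested. Alternatives concerned the pseudocount, filter, scaling, adjustment, variance trend, array weights, DV200, replicate and extraction blocks, background handling and leaving out each tumour.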

Additional observations from a re-analysis of the deposited data

Results flagged for a closer look

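None of the 3 coreceptors and none of their ratios had a tumour far from the other 4 of its stage by Dixon's test at the 95% level. Of all 130 groups of 5 values checked, those of the coreceptors and ratios included, 6 had 1 (4.62%), where chance gives about 5%; all 6 were of other genes. CD163 was 1262 normalized counts in early 2, beside 133 to 424 in the other early tumours. It was 869 in late 2, beside 331 to 484. TNFRSF13C, the BAFF receptor of B cells, was 1713 in early 1, beside 921 to 1148, and 2497 in late 3, beside 416 to 827. The calprotectin subunit S100A9 was 6762 in late 2, beside 89.59 to 1410. SH2D1A, among the genes nearest to CD4 in pattern, was 4324 in late 1, beside 1335 to 2051.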

How the results depend on the processing

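CD4, CD8A and CD8B were higher in late CCH under all 14 other settings and in all 10 fits without 1 tumour, with early minus late log2 differences of −2.89 to −2.40, −3.13 to −2.58 and −2.75 to −2.19 over the former. The BY call of CD4 was lost with DV200 as a covariate (−2.48) and under the replicate block (−2.86, BY adjusted p = 0.125). Both CD8 chains passed when BH replaced BY (−3.09 and −2.72). Without 1 tumour, CD4 ranged from −3.19 to −2.56, CD8A from −3.55 to −2.27 and CD8B from −3.12 to −2.07. The count of genes called across the panel, 85, was 0 with DV200 (45 past BH, 197 at an unadjusted limma p under 0.05), 1 under the replicate block (228 past BH), 188 under BH with the fold limit kept, and 39 to 98 without 1 tumour; it was lower than 85 by over 1.5 times without early 5 (47), late 1 (39), late 2 (48), late 4 (41) or late 5 (52). Stage and DV200 are largely aligned here, and what DV200 alone contributes was not tested.

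The replicate numbers did not pair the tumours: they come from different dogs, same-numbered tumours had deviations correlating at −0.20, 0.16, 0.07, 0.06 and −0.07, and only replicate 2 correlated best with its own number. Under the block, sign flips over 5 pairs cannot go below an exact p of 0.0625, so the ratios could not pass.

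The ratio differences turned sign after subtraction of the negative probe mean for CD4 to CD8A (−0.10) and CD4 to CD3E (−0.060). Without 1 tumour they ranged from −0.29 to 0.58 (CD4 to CD8A, turned without early 1 or late 2), −0.31 to 0.78 (CD4 to CD3E, turned without early 1), −0.089 to 0.27 (CD8A to CD3E, turned without early 1, early 2 or late 3), −0.46 to −0.20 (CD8A to CD8B) and 0.18 to 0.70 (CD8B to CD3E); none passed its test in any of these.

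Of 1364 values for the 57 other genes followed, 1134 kept their direction and side of the threshold, 168 lost a call, 47 gained one and 15 turned sign, all of them uncalled. With geometric mean scaling the sign turned for B2M (0.33), CD163 (0.081), FOXP3 (0.20), IL16 (0.035) and PTPRC (0.068), with TMM scaling for B2M (0.19) and FOXP3 (0.076), with quantile normalization for CD163 (0.23), with array weights for B2M (0.021), and with DV200 for B2M (0.27), CD40LG (0.11) and FOXP3 (0.13). Without 1 tumour, B2M ranged from −0.18 to 0.050 and CD163 from −0.76 to 0.051. Among the list genes past the BY rule, each lost its call with DV200 as a covariate. The cause of these turns was not tested. The extraction batch as a random block had a consensus correlation of −0.14. The planned count-based test was not run, because the values were accepted only as a normalized signal. The early ranges without early 1 were an alternative chosen after seeing the data. CD4 rested on the fewest barcodes in early 1 (32) and early 5 (21). These were the early tumours with the most and the fewest recovered counts (823763 and 484696).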

Other observations

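Among the 9 Langerhans and dendritic cell markers tested, FLT3, a growth factor receptor of dendritic cells, was higher in early CCH (2.49, limma BY adjusted p = 0.0102), at 962 to 3117 normalized counts against 271 to 708 in late tumours, with no overlap. The chemokine receptor CCR7 (−1.68, limma BH adjusted p = 0.0170) and XCR1, named after its value was seen (−1.60, 0.0359), passed the BH threshold with late higher, and the median of the list was 0.05. CD209, a lectin of macrophages and dendritic cells, was at −1.90 (limma BH adjusted p = 0.0658). CD244, carried by natural killer and cytotoxic T cells, was at 0.99 (limma BH adjusted p = 0.119), with 79.58 to 405 normalized counts in early and 69.08 to 111 in late tumours, highest in early 3 and early 4.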
